A study of Rattus norvegicus with 9 samples.

Results

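The genes of the urea cycle and of arginine and polyamine metabolism were followed in the proximal colon of rats fed different proteins. There were 9 of them, Ass1, Cps1, Asl, Otc, Arg1, Arg2, Odc1, Oat and Nos2. They were read by every probe set (a group of short oligonucleotides for a transcript on the array) whose only gene symbol in the platform annotation was one of these names. This rule found 18 probe sets out of 8799 on the array, which carry 4737 different gene symbols. Male Sprague Dawley rats were fed, over their lifetime, purified diets whose protein was whey protein hydrolysate (WPH), soy protein isolate (SPI) or casein (CAS). Casein was the control diet. Every group received the colon carcinogen azoxymethane (AOM) in 2 injections (15 mg/kg each) that began at the age of 90 days, and no group without AOM was measured. Tumor-free tissue of the proximal colon was collected 40 weeks after AOM, when some rats of each group had tumors. For each diet the RNA of 7 rats was combined in equal amounts into 1 pool, from which 3 labelled targets (8 µg of RNA each) were prepared side by side and read on Affymetrix rat arrays. The spread between the 3 arrays of a diet is therefore technical, and the p-values set 1 pool against another, not rats against rats.

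In the urea cycle, nitrogen from ammonia and aspartate is packed into urea, mostly in the liver. Carbamoyl phosphate synthetase 1 (Cps1) and ornithine transcarbamylase (Otc) work in mitochondria and make citrulline, which argininosuccinate synthetase (Ass1) and argininosuccinate lyase (Asl) turn into arginine in the cytosol. The arginases, cytosolic Arg1 and mitochondrial Arg2, split arginine into urea and ornithine. Ornithine then goes to putrescine and the other polyamines through ornithine decarboxylase (Odc1), or towards glutamate and proline through ornithine aminotransferase (Oat), while inducible nitric oxide synthase (Nos2) makes nitric oxide from arginine. In the gut, enterocytes of the small intestine make citrulline with Cps1 and Otc, and polyamines serve the renewal of the epithelium.

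The largest differences between diets among the 9 genes were in Cps1, Arg2 and Ass1, and each had a pattern of its own. Cps1 was bright with SPI alone. Arg2 was lowest with WPH, at a dim signal, and highest with CAS, and Ass1 ran the other way, highest with WPH and lowest with CAS. Otc and Oat were, like Cps1, brightest with SPI, by smaller margins.

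The sequence just upstream of the start site is shown for 3 genes that were brightest with SPI and for Ass1, whose order across the diets was different. Each is the 250 bases before the start in the RefSeq promoter table of build GRCr8, which held 6 of the 9 genes. Arg1, Arg2 and Nos2 were not matched. Capitals mark matches on either strand to any of 5 motifs. These were the TATA box, searched as TATAAA, the CCAAT box, searched by those letters, and the GC box, searched as GGGCGG. The E-box was searched as CACGTG and the C/EBP core as TTNNGNAA, where N is any base.
Cps1: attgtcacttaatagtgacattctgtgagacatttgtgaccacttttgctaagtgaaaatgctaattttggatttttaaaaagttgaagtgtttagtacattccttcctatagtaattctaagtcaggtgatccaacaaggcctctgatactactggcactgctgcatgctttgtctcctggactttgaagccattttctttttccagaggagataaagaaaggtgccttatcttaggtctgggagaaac
Otc: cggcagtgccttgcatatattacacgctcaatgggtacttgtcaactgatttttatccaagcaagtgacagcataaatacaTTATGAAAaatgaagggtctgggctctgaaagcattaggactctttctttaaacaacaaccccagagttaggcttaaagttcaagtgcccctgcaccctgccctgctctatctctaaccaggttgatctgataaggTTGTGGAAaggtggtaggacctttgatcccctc
Oat: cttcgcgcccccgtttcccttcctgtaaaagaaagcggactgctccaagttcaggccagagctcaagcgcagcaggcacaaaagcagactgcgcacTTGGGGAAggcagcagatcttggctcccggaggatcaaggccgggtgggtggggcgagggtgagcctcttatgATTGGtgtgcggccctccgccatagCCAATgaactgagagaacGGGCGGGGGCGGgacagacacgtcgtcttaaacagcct
Ass1: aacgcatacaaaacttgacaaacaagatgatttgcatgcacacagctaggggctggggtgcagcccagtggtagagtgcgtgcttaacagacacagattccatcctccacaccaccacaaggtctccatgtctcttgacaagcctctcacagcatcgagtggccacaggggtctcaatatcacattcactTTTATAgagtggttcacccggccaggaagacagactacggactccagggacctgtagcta

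The Cps1 window (chr9:76063613-76063862, plus strand) ends at the base before the annotated gene, and 38% of its bases are G or C, against a median of 51.2% over all 33469 windows of this length. It holds none of the 5 motifs. The Otc window (chrX:15202474-15202723, minus strand) holds 2 C/EBP cores, which begin 169 and 33 bases before the start. The Oat window (chr1:196797755-196798004, minus strand) has the highest G and C share of those shown, 60.8%. It carries 2 CCAAT boxes 81 and 56 bases before the start, 2 GC boxes that share no base at 38 and 32 bases, and 1 C/EBP core at 154 bases. The Ass1 window (chr3:35149480-35149729, plus strand) has 1 match to the TATA box, on the opposite strand, 60 bases before the start. That start lies inside the annotated Ass1 gene (chr3:35144765-35194632), so the window is upstream of an internal start. Among all windows, 12.9% hold a TATA box, 34% a CCAAT box, 30.5% a GC box, 5.59% an E-box and 37.2% a C/EBP core.

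Values are MAS 5.0 signals, a brightness on a linear scale that was brought to an average of 500 on every array, and they compare diets for a probe set, not genes with each other. Of the 18 probe sets, 14 reached a mean of 100 with some diet and were tested, and these still covered all 9 genes. The other 4 were 1 of Cps1, 1 of Otc and 2 of Nos2. Changed means an adjusted p under 0.05 in the limma fit over 5606 probe sets. Folds are ratios of mean signals. Where all 3 arrays of a diet were under 100, the fold is a lower bound in which signals under 100 were set to 100.

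With WPH against CAS, 8 of the 14 tested probe sets changed, 3 higher and 5 lower. The 3 higher include Cps1 on M12335expandedCDS_s_at, which was under 100 on every array of both diets. Among all tested probe sets 38.8% changed in this comparison, 20.9% higher and 17.9% lower. With SPI against CAS, 9 changed, 7 higher and 2 lower, where the whole table had 22.2% changed, 12.0% higher and 10.2% lower. Between WPH and SPI, 7 changed, 1 higher and 6 lower with WPH, beside 19.9% of the whole table, 9.83% higher and 10.1% lower. Cps1 on M12335expandedCDS_s_at and Otc on M11266_at had means under 100 with WPH and CAS. They passed the filter only through SPI, which largely fixed in advance that they would be highest there. The 7 higher with SPI and the 6 lower with WPH both include them. The median log2 changes of the 14 probe sets in these comparisons were 0.09, 0.57 and -0.23, and those of all probe sets were 0.06, -0.01 and 0.08. The comparisons share their arrays and are not independent of each other.

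**Figure D1:**
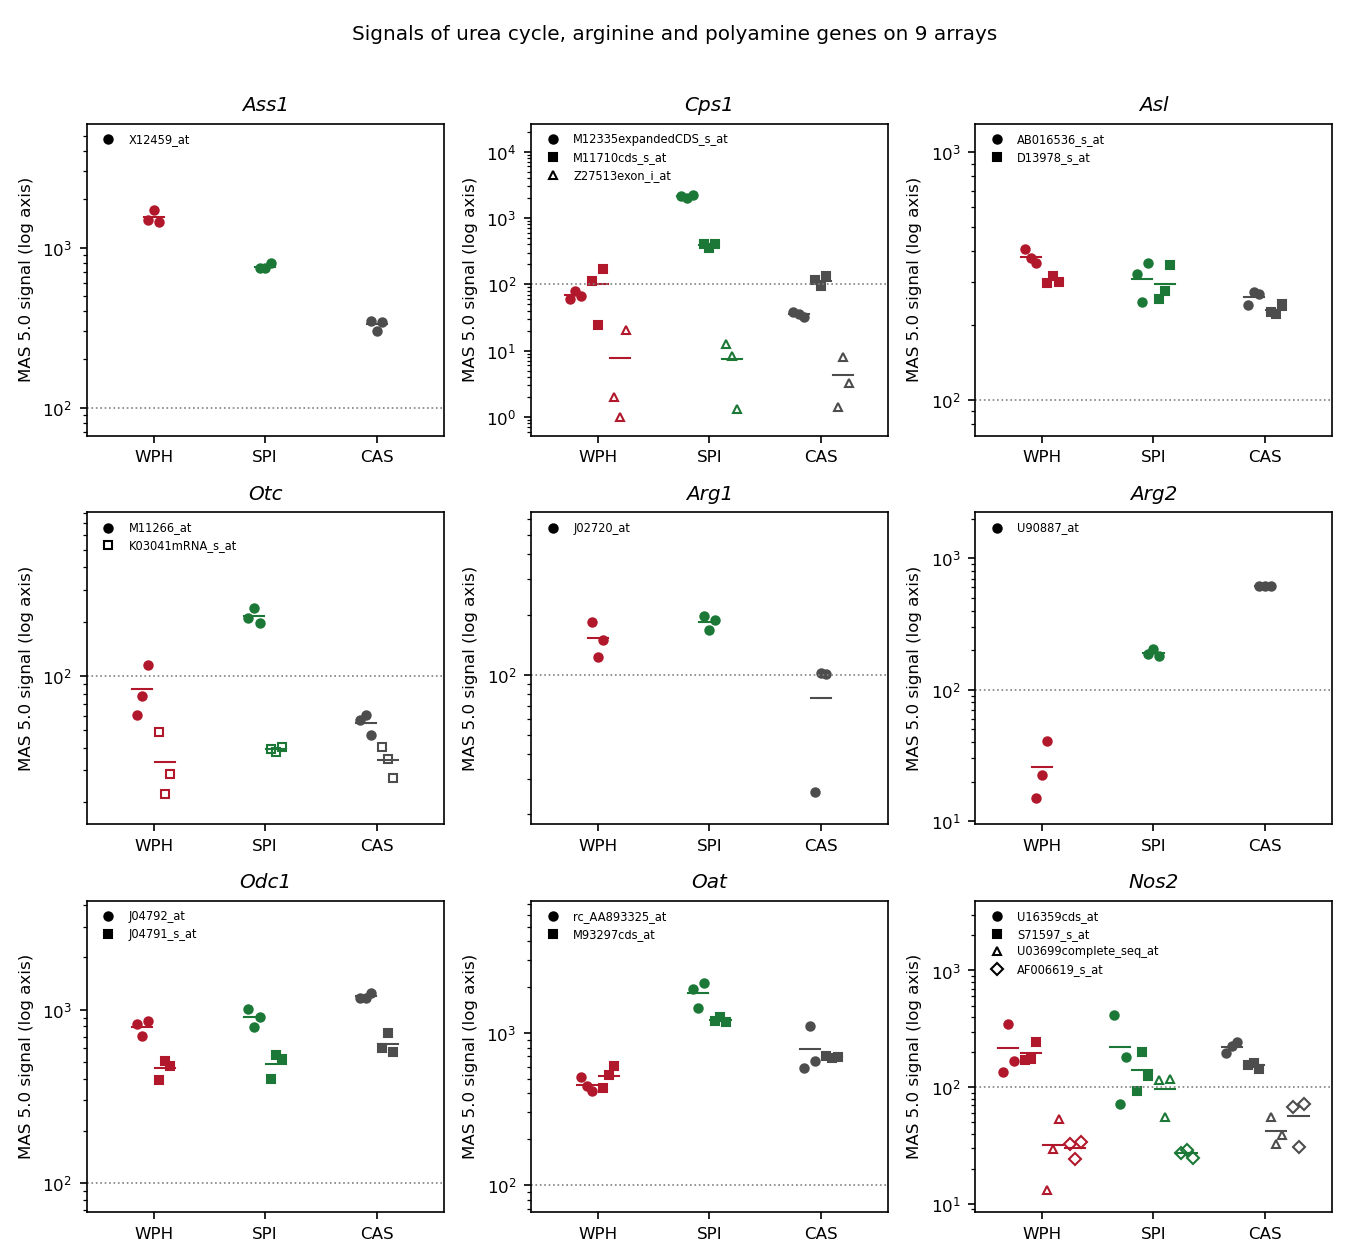
MAS 5.0 signals (log axis) of the 18 probe sets of the 9 genes on each array, by diet (WPH red, SPI green, CAS grey). Short lines are means of 3 arrays, open symbols are probe sets that were not tested, and the dotted line is a signal of 100. Cps1 on M12335expandedCDS_s_at stands at 1967 to 2235 with SPI and under 100 on the other 6 arrays, Arg2 is under 100 with WPH only, and the 3 diets are apart for Ass1.

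**Figure D2:**
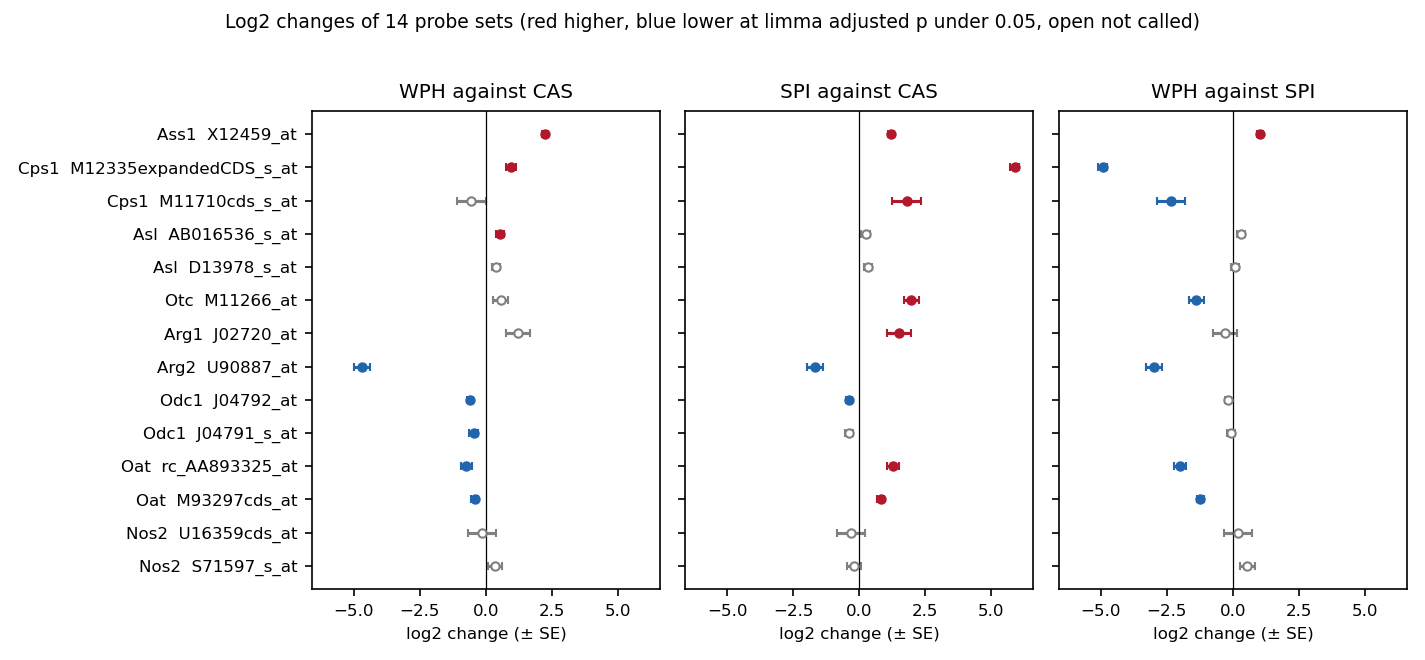
Log2 changes of the 14 tested probe sets (points, horizontal axis) with their standard errors from the limma fit (bars), in the comparisons of WPH with CAS, SPI with CAS and WPH with SPI. Red is higher, blue lower and open not called; Cps1 reaches 5.89 with SPI against CAS and Arg2 -4.69 with WPH against CAS.

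Some facts of the arrays stand beside all these results. Between 58.6 and 60.2% of probe sets were at 100 or more on every array. The ratio of the 3′ to the 5′ control probe set of Actb, which rises where RNA or target is broken, was 2.98 ± 0.488 with WPH, 2.21 ± 0.126 with SPI and 1.86 ± 0.0256 with CAS (SD, n = 3 arrays), whereas that of Gapdh was 1.64 with WPH, 1.56 with SPI and 1.56 with CAS. Its part in the results was not tested. The settings files of the instrument gave a hybridization date and time for each array. Arrays whose times lay within minutes of each other were taken as a wash round, a grouping that the files do not name. By this grouping WPH array 2 was washed with the 3 CAS arrays, WPH arrays 1 and 3 were washed with SPI arrays 1 and 2, and SPI array 3 stood alone. SPI and CAS thus shared no wash round, and a fit with the round as a block compares them only by way of WPH. In that block fit 2 of the 9 calls between SPI and CAS were left, Ass1 and Cps1 on M12335expandedCDS_s_at.

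Marker genes of the cell types in the colon wall differed widely between the diets. All 16 epithelial genes measured had a mean of at least 100 in each diet. Of these, 15 fell with WPH and 10 with SPI, and their summed signal was 25069 to 27415 with WPH, 51697 to 54309 with SPI and 83501 to 90479 with CAS. The mucin gene Muc2 had the largest change of them with WPH against CAS, 1387 ± 305 with WPH and 5532 ± 1131 with SPI, against 16612 ± 1119 with CAS. Smooth muscle went the other way. Of 11 such genes 10 rose with each of WPH and SPI, and their sum was 238700 to 270288 with WPH, 179360 to 182155 with SPI and 126366 to 128212 with CAS. Since the RNA came from whole tissue, fewer cells of a type and less RNA per cell cannot be told apart in any of the signals. With the wash round as a block, 14 epithelial genes fell and 10 smooth muscle genes rose with WPH against CAS, and 6 fell and 3 rose with SPI against CAS.

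Some genes of the epididymis and male tract were bright in the CAS pool. Of 13 such genes on the array, 12 had a mean under 100 with WPH, 10 with SPI and 5 with CAS. Most of the 8 tested thus passed the filter only through CAS. All 8 fell with WPH and 7 with SPI against CAS. The sum of the list was 485 to 791 with WPH, 819 to 901 with SPI and 10609 to 11558 with CAS. Of the list, 7 genes had been chosen because they were known to be bright with CAS in these data. These counts were therefore largely fixed in advance. Cd52 averaged 11.9 with WPH, 11.2 with SPI and 3419 with CAS, while Gpx5 and Crisp2 were between 4.07 and 6.93 in the mean of every diet. Between WPH and SPI 6 of the 8 were not called. There was 1 pool per diet, so these signals stand beside every value set against CAS, and their part in those values was not tested.

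Ass1, which joins citrulline to aspartate and is the rate-limiting enzyme when cells recycle citrulline to arginine, was read by 1 probe set, X12459_at. Its signal was 1481, 1719 and 1454 on the WPH arrays, 740.2, 740.4 and 800.2 on the SPI arrays and 347, 300 and 344.5 on the CAS arrays. No array of a diet overlapped with one of another diet. Ass1 was 4.69-fold higher with WPH than with CAS (log2 2.23, SE 0.11, adjusted p = 8.79e-08) and 2.3-fold higher with SPI than with CAS (log2 1.20, adjusted p = 2.22e-05). WPH was 2.04-fold above SPI (log2 1.03, adjusted p = 7.78e-05). All 3 calls stood in every alternative fit, the wash round block included. These alternative fits, here and for the other genes, leave out the rules that set a fold minimum, and by a pairwise rule, which asks for at least 2-fold in all array pairs, Ass1 was not called between WPH and SPI.

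Over the 9 arrays, which are 3 arrays each of 3 pools, the log2 signals most like those of Ass1 among 3388 other genes were those of fibronectin (Fn1, Pearson r = 0.997), synapsin 2 (Syn2, r = 0.996) and the chaperone Dnajb5 (r = 0.995). Fn1 averaged 9719 with WPH, 6502 with SPI and 4224 with CAS. The order of the 3 diets in Ass1 was also that of the summed smooth muscle markers given above, of those of enteric neurons and glia, and of those of adipocytes. For the neural list 10 of 12 genes rose and 1 fell with WPH against CAS, and the sum was 15916 to 18069 with WPH, 10776 to 11985 with SPI and 7840 to 8086 with CAS. Of 7 adipocyte genes 4 rose and 1 fell with WPH against CAS, and their sum was 14514 to 16062 with WPH, 11455 to 11568 with SPI and 7911 to 8911 with CAS. The summed hepatocyte markers were also highest with WPH, at 3485 to 3662, but lowest with SPI, at 1118 to 1278, and were 1849 to 2215 with CAS. Of 10 hepatocyte genes tested, 5 rose and 1 fell with WPH against CAS. The part of these tissue markers in the Ass1 signal was not tested.

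Asl, the next enzyme, splits argininosuccinate into arginine and fumarate, and differed mildly. On AB016536_s_at it had 405, 373 and 357 with WPH, 322, 249 and 357 with SPI and 241, 273 and 268 with CAS. The WPH arrays lay above all CAS arrays, and the SPI arrays overlapped both. It was 1.45-fold higher with WPH than with CAS (log2 0.54, SE 0.15, adjusted p = 0.016). With wash round as a block the adjusted p was 0.113, and the call was also lost without WPH array 1 and without CAS array 1. The other probe set, D13978_s_at, was between 297 and 317 with WPH, between 255.0 and 349.5 with SPI and between 222 and 245 with CAS, and its log2 change of 0.40 with WPH against CAS missed the threshold (adjusted p = 0.0537). Neither was called with SPI, at log2 changes of 0.23 and 0.33 against CAS.

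Cps1 makes carbamoyl phosphate from ammonia and is the entry step of the urea cycle. On M12335expandedCDS_s_at its signal was 60.4, 80.2 and 67.3 with WPH, 2126, 1967 and 2235 with SPI and 38.0, 36.2 and 32.6 with CAS. The 3 SPI arrays were far above the other 6. With SPI it was at least 21.1-fold higher than with CAS (log2 5.89, SE 0.17, adjusted p = 1.73e-09). WPH was at least 21.1-fold lower than SPI (log2 -4.94, adjusted p = 1.19e-08). Both calls stood in every alternative fit. WPH and CAS were both under 100 on all arrays, so no fold is given for them, although the fit placed WPH higher (log2 0.95, adjusted p = 0.00101, and 0.149 within the shared wash round).

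A second Cps1 probe set, M11710cds_s_at, was dimmer and less steady. It had 110.4, 24.3 and 167.6 with WPH, 409, 352.5 and 409.7 with SPI and 115, 93.2 and 131 with CAS. The SPI arrays were above all others, and WPH array 2 was by far the lowest. SPI was 3.45-fold above CAS (log2 1.80, SE 0.54, adjusted p = 0.0355), but the call was lost when any single SPI or CAS array was left out, with adjusted p between 0.0632 and 0.0975. Those fits share 1 estimate of the spread with the WPH arrays. In the limma fit of SPI and CAS alone the log2 change was the same, with SE 0.17 and adjusted p = 0.000134. In the wash round block, where SPI meets CAS only by way of that low WPH array, the log2 change was -0.72 (adjusted p = 0.43). Against SPI, WPH was 3.87-fold lower (log2 -2.35, adjusted p = 0.0108), in every alternative fit as well. Between WPH and CAS the log2 change of -0.55 was not called (adjusted p = 0.462), while the wash round block, which sets WPH array 2 against CAS, gave -2.21 (adjusted p = 0.00144). The remaining Cps1 probe set, Z27513exon_i_at, stayed between 1.0 and 20.2 on all arrays and was not tested.

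Otc joins carbamoyl phosphate to ornithine, directly after Cps1. On M11266_at it had 60.5, 77.3 and 115.5 with WPH, 208, 239 and 197 with SPI and 57.2, 60.9 and 47.2 with CAS. As for Cps1, the 3 SPI arrays were above the other 6. Otc was at least 2.15-fold higher with SPI than with CAS (log2 1.97, SE 0.28, adjusted p = 0.00058), a call that stood without any single array but not with the wash round as a block (log2 1.91, adjusted p = 0.104). WPH was 2.54-fold lower than SPI (log2 -1.39, adjusted p = 0.00557), with log2 -1.42 and an adjusted p of 0.0867 within the wash round they share. WPH and CAS did not differ past the threshold (log2 0.57, adjusted p = 0.14). The second probe set, K03041mRNA_s_at, was between 22.2 and 48.9 on every array and was not tested.

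Oat moves the amino group of ornithine to make the precursor of glutamate and proline, and both of its probe sets had their highest mean with SPI and their lowest with WPH. On M93297cds_at the signal was 437, 525 and 603 with WPH, 1203, 1263 and 1187 with SPI and 708, 682 and 697 with CAS, with no overlap between diets. SPI was 1.75-fold above CAS (log2 0.81, SE 0.12, adjusted p = 0.000739), WPH was 1.33-fold below CAS (log2 -0.43, adjusted p = 0.0158), and WPH was 2.33-fold below SPI (log2 -1.24, adjusted p = 3.68e-05).

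On rc_AA893325_at, Oat had 509, 444 and 414.5 with WPH, 1954, 1448 and 2120 with SPI and 592, 1113 and 657 with CAS. CAS array 2 stood above the other CAS arrays, yet below all SPI arrays. The folds were 2.34 higher with SPI than with CAS (log2 1.26, adjusted p = 0.00187), 1.73 lower with WPH than with CAS (log2 -0.74, adjusted p = 0.0213) and 4.04 lower with WPH than with SPI (log2 -2.00, adjusted p = 9.11e-05). The difference between WPH and SPI stood in every alternative fit for both probe sets. The 2 calls between SPI and CAS were lost with the wash round block (adjusted p = 0.1 on M93297cds_at and 0.219 on rc_AA893325_at), as were those between WPH and CAS (adjusted p = 0.163 and 0.133). Leaving out WPH array 1 ended the call between WPH and CAS on M93297cds_at, and leaving out CAS array 2, WPH array 2 or WPH array 3 ended that on rc_AA893325_at.

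The genes whose log2 signals over the 9 arrays were most like Cps1 on M12335expandedCDS_s_at were Reg3b, a secreted lectin of the intestinal defence (r = 0.998), Spp1, which codes for osteopontin (r = 0.994), and Mmp12, a macrophage elastase (r = 0.991). Reg3b averaged 452 with WPH, 15384 with SPI and 225 with CAS, and Spp1 averaged 105 with WPH, 6130 with SPI and 55.0 with CAS. For Otc they were S100a9 (r = 0.971), Eno1 (r = 0.964) and Lox (r = 0.963), and for Oat on rc_AA893325_at Vmp1 (r = 0.973), Psmb9 (r = 0.969) and Cyp1b1 (r = 0.963). The value of r does not measure the size of a difference. Eno1 averaged 9985 with WPH, 11199 with SPI and 9666 with CAS, a much smaller difference than that of Otc.

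Markers of macrophages and granulocytes were, like Cps1, Otc and Oat, brightest with SPI in their sum. Of 9 tested, 5 rose and 1 fell with SPI against CAS (3 and 0 with the wash round block), and their sum was 4915 to 5416 with WPH, 10008 to 10877 with SPI and 4271 to 4503 with CAS. Most of that sum was Lyz2, which averaged 3331 with WPH, 6692 with SPI and 2412 with CAS. The gene that fell was Cd14, at 391 with SPI and 671 with CAS. Fcgr2b, Il1b and Ptprc were not called with SPI against CAS, and Csf1r, Itgam and Tnf had means under 100 in every diet. S100a9, a subunit of the neutrophil protein calprotectin, averaged 71.7 with WPH, 783 with SPI and 27.7 with CAS, and its partner S100a8 9.43 with WPH, 347 with SPI and 4.07 with CAS. S100a9 and S100a8 are among the 5 that rose. Both passed the filter only through SPI, so their increase was largely fixed in advance. Hepatocyte markers, which were looked at because Cps1 and Otc are abundant in liver, were dimmest with SPI in their sum. Of 10 tested, 6 fell with SPI against CAS (2 with the wash round block), and albumin (Alb) averaged 416 with WPH, 46.8 with SPI and 122 with CAS. The liver enzyme Tdo2 was dim in all diets, at means of 24.5 with WPH, 9.67 with SPI and 24.6 with CAS. The sum of the hepatocyte list was 3485 to 3662 with WPH, 1118 to 1278 with SPI and 1849 to 2215 with CAS. The part of the macrophage and granulocyte markers in the Cps1, Otc and Oat signals was not tested.

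Arg1, the cytosolic arginase of liver and of some macrophages, was close to the limit of 100. Its probe set J02720_at had 183, 123 and 150 with WPH, 196, 166.5 and 187 with SPI and 25.7, 101.9 and 101.0 with CAS. The CAS arrays were below all others, and CAS array 1 lay far under its 2 companions. Arg1 was 2.41-fold higher with SPI than with CAS (log2 1.51, SE 0.45, adjusted p = 0.0341), a call that was lost in 9 of 20 alternatives, among them those without any single SPI array and the wash round block (adjusted p = 0.611). Without CAS array 1 the log2 change was 0.85 (adjusted p = 0.0325). The increase with WPH against CAS missed the threshold (log2 1.22, adjusted p = 0.0524), and WPH and SPI overlapped (log2 -0.29, SE 0.45, adjusted p = 0.706). Cyp7b1 (r = 0.967), Tgfb1 (r = 0.96) and Opa1 (r = 0.940) were most like it over the arrays.

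Arg2, the mitochondrial arginase found outside the liver, had the steepest decrease against CAS of the 9 genes. On U90887_at the signal was 14.9, 22.6 and 40.5 with WPH, 188, 204 and 181 with SPI and 616, 619 and 613 with CAS. The diets did not overlap, and the CAS arrays were almost equal. WPH was at least 6.16-fold lower than CAS (log2 -4.69, SE 0.30, adjusted p = 5.67e-07). With signals under 50 set to 50, that log2 change was -3.62. SPI was 3.22-fold lower than CAS (log2 -1.69, adjusted p = 0.00219), and WPH was at least 1.91-fold lower than SPI (log2 -3.00, adjusted p = 4.54e-05). The calls of WPH against each of the others stood in every alternative fit, whereas that of SPI against CAS was lost with the wash round as a block (log2 -1.77, adjusted p = 0.159).

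Most like Arg2 over the arrays were Atp12a, a proton and potassium pump of the distal colon (r = 0.997), Galnt6, which starts the sugar chains of mucins (r = 0.990), and Cd55 (r = 0.989). Atp12a averaged 73.5 with WPH, 405 with SPI and 1020.0 with CAS. The summed epithelial markers given above had this order of diets too. Not every marker did, since Lgals4 averaged 11434 with SPI and 10676 with CAS. Anpep averaged 351 with WPH, 342 with SPI and 317 with CAS. The part of these markers, or of the male tract genes bright with CAS, in the Arg2 signal was not tested.

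**Figure D3:**
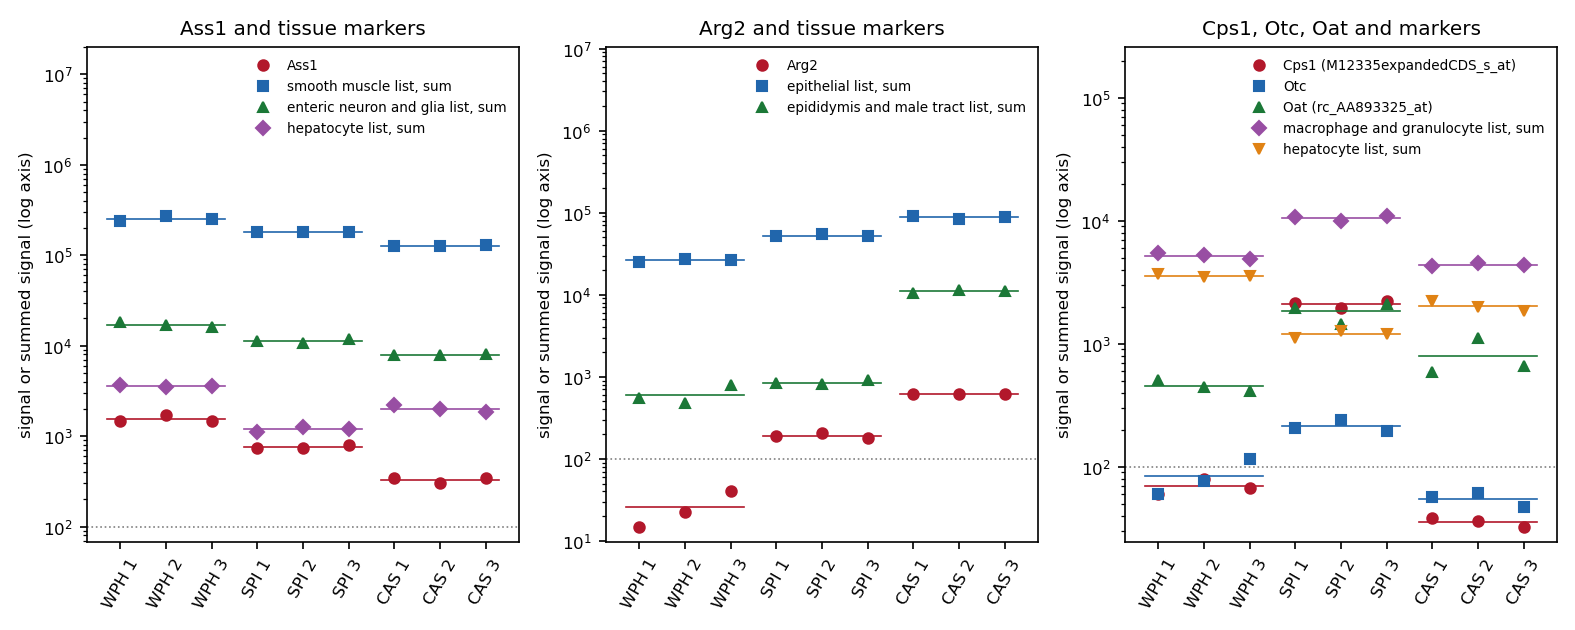
Signals of Ass1 (left), Arg2 (middle) and Cps1, Otc and Oat (right) on each of the 9 arrays, with the summed signals of marker lists, on log axes. Thin lines are means of the 3 arrays of a diet and the dotted line is a signal of 100; the epithelial sum is 25069 to 27415 with WPH and 83501 to 90479 with CAS, the macrophage and granulocyte sum is highest with SPI and the hepatocyte sum is lowest there.

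Odc1, the rate-limiting enzyme of polyamine synthesis, fell mildly. On J04792_at it had 823, 706 and 861 with WPH, 1003, 799 and 912 with SPI and 1165, 1170.0 and 1249 with CAS. The CAS arrays were above all others, while WPH and SPI overlapped. It was 1.5-fold lower with WPH than with CAS (log2 -0.59, SE 0.12, adjusted p = 0.00187), which stood in every alternative fit. It was 1.32-fold lower with SPI than with CAS (log2 -0.41, adjusted p = 0.0279), which was lost in 9 of 21 alternatives, those without any single CAS array and the wash round block among them (adjusted p = 0.134). On J04791_s_at the signal was 395, 508.5 and 475 with WPH, 399, 548 and 517 with SPI and 599, 735 and 571 with CAS. That probe set was called lower with WPH against CAS (log2 -0.47, adjusted p = 0.0383) but lost the call in 11 of 22 alternatives, and with SPI it was not called (log2 -0.38, adjusted p = 0.116). WPH and SPI did not differ past the threshold on either (log2 -0.18 and -0.08).

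The 2 tested probe sets of Nos2 were called in no comparison. Their lowest unadjusted p was 0.0696 in the limma fit and 0.153 in the methods' t-test. On S71597_s_at it had 172, 174 and 245 with WPH, 92.7, 202 and 125.5 with SPI and 156, 162.5 and 143 with CAS. On U16359cds_at it had 136, 345 and 168 with WPH, 417, 71.9 and 181 with SPI and 195, 226 and 246 with CAS. Without SPI array 2, S71597_s_at was called higher with WPH than with SPI (log2 0.85, adjusted p = 0.0346). The SPI arrays of the second probe set spanned more than the range of the other diets. The log2 changes lay between -0.33 and 0.55, with standard errors of 0.27 for S71597_s_at and 0.53 for U16359cds_at. The other 2 Nos2 probe sets, which were dimmer, were between 13.1 and 117 on all arrays. When no filter was set they were not called (lowest adjusted p 0.0623), and U03699complete_seq_at, which passed the filter only without SPI array 2, was then called lower with WPH than with SPI (adjusted p = 0.0481). A further 3 probe sets that the annotation shares between Nos2 and its pseudogene were outside the rule and averaged between 10.3 and 127.

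The neighbouring genes of these pathways were counted from 5 lists, with the brightest probe set per gene. In most lists the genes moved both ways and the median was near 0. As a scale for the counts, calls across the 5606 probe sets of the fit ran to 20.9% up and 17.9% down for WPH against CAS. For SPI against CAS the shares were 12.0% up and 10.2% down, and for WPH against SPI 9.83% up and 10.1% down. Whether any list departed from these shares was not tested. Of 6 accessory genes of the urea cycle (carriers and enzymes that feed it), 2 rose and 1 fell with WPH against CAS, and 1 rose and 1 fell with SPI against CAS. The gene that fell in both was Slc25a10, the mitochondrial dicarboxylate carrier, with 1643 ± 75.8 with WPH, 2116 ± 98.0 with SPI and 3588 ± 165 with CAS (SD, n = 3). Its log2 change was -1.13 with WPH (adjusted p = 1.31e-06) and -0.76 with SPI (adjusted p = 7.42e-05).

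Of 12 genes of arginine use and transport, 3 rose and 4 fell with WPH against CAS, and 3 rose and 2 fell with SPI against CAS. The arginine transporter Slc7a1 averaged 62.8 with WPH, 179 with SPI and 192 with CAS, a decrease of at least 1.92-fold with WPH against CAS (log2 -1.66, SE 0.39, adjusted p = 0.00531). Ckmt1, a mitochondrial creatine kinase, averaged 2050 ± 236 with WPH, 5750 ± 305 with SPI and 5548 ± 325 with CAS, and was 2.71-fold lower with WPH (log2 -1.44, adjusted p = 7.92e-07). With SPI neither was called (adjusted p = 0.862 for Slc7a1 and 0.769 for Ckmt1).

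Nitric oxide is made with tetrahydrobiopterin as a cofactor and is sensed by soluble guanylate cyclase. Of 9 genes of this list 3 rose and 3 fell with WPH against CAS, and 2 rose and 3 fell with SPI. Gch1, the rate-limiting enzyme of tetrahydrobiopterin synthesis, averaged 263 ± 15.5 with WPH, 640.1 ± 57.7 with SPI and 858 ± 127 with CAS, which is 3.26-fold lower with WPH (log2 -1.70, adjusted p = 2.13e-06). Prkg2, a cGMP-dependent kinase of epithelium, averaged 118 with WPH, 112 with SPI and 291 with CAS (log2 -1.32 with WPH, adjusted p = 0.000407, and -1.39 with SPI, adjusted p = 0.000722). The 2 guanylate cyclase subunits went up with WPH. Gucy1a1 averaged 1453 with WPH, 902 with SPI and 603 with CAS (log2 1.27 with WPH against CAS, adjusted p = 2.63e-06), and Gucy1b1 averaged 1643 with WPH, 1091 with SPI and 783 with CAS (log2 1.09, adjusted p = 0.001).

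Of 9 genes listed for polyamine synthesis and breakdown, 1 rose and 2 fell with WPH against CAS, and 2 rose and 2 fell with SPI. Mat2a, which makes S-adenosylmethionine, averaged 231 ± 25.6 with WPH, 335 ± 22.0 with SPI and 672 ± 82.2 with CAS (log2 -1.54 with WPH, adjusted p = 5.91e-06, and, with SPI, an adjusted p of 0.000451). Hnmt, histamine methyltransferase, was 1 of the 2 that rose with SPI, but it acts on histamine and not on polyamines. It reached only 123 ± 41.9 with SPI and was under 100 in its means with WPH (19.4) and CAS (8.90). Hnmt was called higher with SPI against CAS (at least 1.23-fold, log2 4.08, SE 1.07, adjusted p = 0.0185). Of 9 genes listed for ornithine, proline and glutamate metabolism, 1 rose and 2 fell with WPH against CAS, and 1 rose and 3 fell with SPI. The gene that rose in both was P4ha1, whose enzyme acts on proline within collagen and not on free proline. Gpt, an alanine aminotransferase, averaged 600.1 ± 31.0 with WPH, 911 ± 81.1 with SPI and 1321 ± 230 with CAS (log2 -1.12 with WPH, adjusted p = 5.62e-05).

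**Figure D4:**
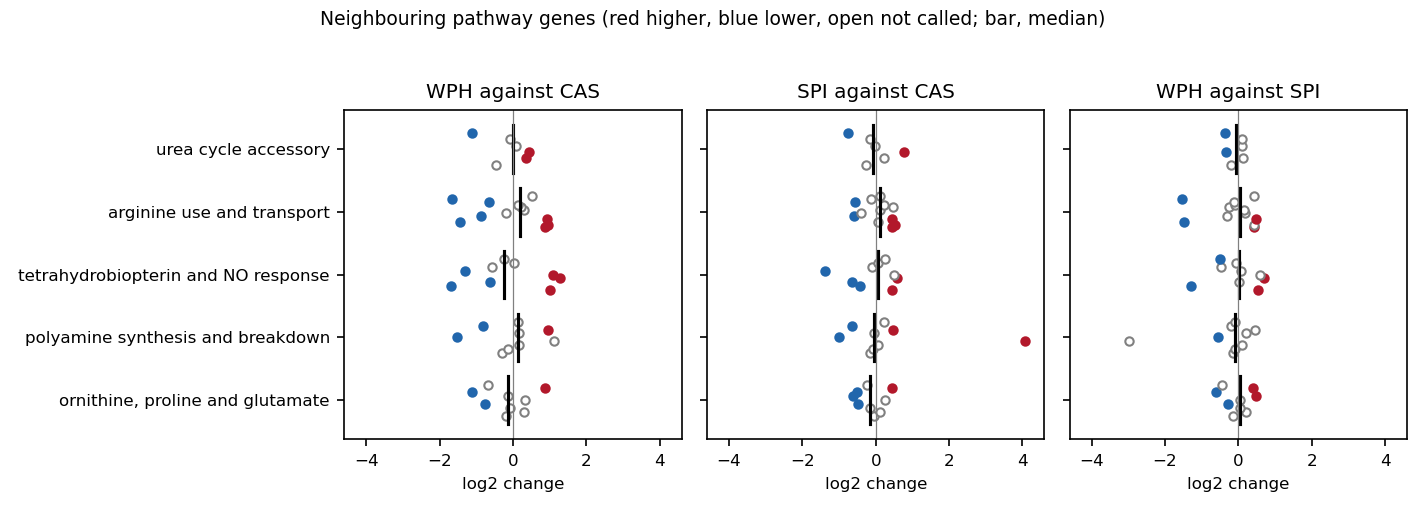
Log2 changes (horizontal axis) of the tested genes of the 5 neighbouring pathway lists in the 3 comparisons, a point for each gene, red higher, blue lower and open not called at an adjusted p under 0.05. Black bars are list medians, which lie between -0.24 and 0.18; the point at 4.08 with SPI against CAS is Hnmt, whose CAS signals were under 100 and whose fold is only a bound of at least 1.23.

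Between WPH and SPI, 2 of the 6 accessory genes were lower with WPH. The counts were 2 higher and 2 lower of 12 for arginine use and transport, 2 higher and 2 lower of 9 for tetrahydrobiopterin and nitric oxide, 1 lower of 9 for polyamines, and 2 higher and 2 lower of 9 for ornithine, proline and glutamate. With the wash round as a block, the calls between SPI and CAS in these 5 lists came down to 1 higher and 1 lower, both accessory genes. Between WPH and SPI the block left 1 higher and 1 lower for arginine use and transport, 2 higher and 1 lower for tetrahydrobiopterin and nitric oxide and 1 higher for ornithine, proline and glutamate.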

How the data were processed

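The deposited intensities are linear MAS 5.0 signals that the authors computed from the scanned images and scaled to an average of 500 per array. They carry no detection calls. In the platform annotation 7018 probe sets had 1 symbol, 308 had more and 1473 had none. The members and gene lists were chosen with earlier results of these data known. Values under 0.1 were set to 0.1 and changed to log2. Of 8740 probe sets, after 59 Affymetrix controls were left out, 5606 had a mean of 100 or more with some diet. The 3 diets were fitted together with limma 3.58.1 in R 4.3.3 (variance trend, Benjamini-Hochberg adjustment over all 5606), after testing on simulated data. Precision is limited by 3 arrays of 1 RNA pool per diet, and the spread between rats was not measured. Lists used the brightest probe set per gene. Named were all probe sets of the 9 genes, up to 4 list genes called with at least 2-fold, the 3 genes most like each member so called, and up to 3 marker genes of a list that moved with a member.

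The alternatives tried were wash round or replicate number as a block, each array left out, the methods' t-test, a pairwise rule, a 2-fold minimum, 1 probe set per gene, median centring, quantile normalization, a fit of the compared diets alone or without the variance trend, a filter at 200, no filter, signals raised to 50, and a pseudocount of 32. The pairwise rule is only the part of the methods' rule that these signals allow, at least 2-fold in 9 of 9 array pairs with 100 or more on all 3 arrays of the higher diet. The change calls and Present calls that the methods also ask for were not used here. Comparisons within a wash round were added after seeing the data. Promoter windows came from the RefSeq table of GRCr8. Other steps used Python 3.11.15 (numpy 2.4.6, pandas 2.3.3, matplotlib 3.10.9).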

Additional observations from a re-analysis of the deposited data

How the results depend on the processing

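Of 42 member results (14 probe sets in 3 comparisons), 24 were called, and 11 of these kept their call under every alternative fit that was run, the rules with a fold minimum not counted. Calls were also gained. With WPH against CAS, Asl on D13978_s_at was called higher in 8 of 22 alternatives and Arg1 in 5 of 21. The 8 member probe sets changed with WPH against CAS became 5 with the wash round block, 4 within wash round 1, 2 with a 2-fold minimum, 2 by the pairwise rule and 5 to 9 with an array left out, 5 being the count without WPH array 1. The 9 with SPI against CAS became 2 with the wash round block, 5 by the pairwise rule and 6 to 9 with an array left out. The 7 with WPH against SPI became 4 by the pairwise rule and 7 to 9 with an array left out. The direction of a called value changed once, for Cps1 on M11710cds_s_at with SPI against CAS, whose log2 change was -0.72 with the wash round block (adjusted p = 0.43). That fit compares SPI and CAS only by way of WPH. The cause of the other changes was not tested.

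Over the whole table, the 2175 probe sets changed with WPH against CAS became 786 with a 2-fold minimum, 398 by the pairwise rule, 1337 with 1 probe set per gene and 1854 to 2219 with an array left out. The 1243 with SPI against CAS became 252 with the wash round block, 798 by the methods' t-test after Benjamini-Hochberg adjustment, 324 with a 2-fold minimum, 176 by the pairwise rule, 761 with 1 probe set per gene and 894 to 1281 with an array left out. The 1116 with WPH against SPI became 560 with the wash round block, 315 within wash round 2, 536 by the methods' t-test with adjustment, 308 with a 2-fold minimum, 147 by the pairwise rule, 705 with 1 probe set per gene and 786 to 1115 with an array left out. The methods' t-test without adjustment called 8, 9 and 7 member probe sets.

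With the replicate number as a block, 8, 8 and 7 member probe sets were called in the comparisons of WPH with CAS, SPI with CAS and WPH with SPI, the call lost being that of Arg1 with SPI against CAS. The numbers do not pair the arrays, since deviations of same-numbered arrays from their group means correlated at -0.294 to 0.25 (median -0.132, 9 pairs) and those of other pairs at -0.365 to 0.302 (median 0.0393, 18 pairs). Signals under 100 give only a bound, which limits Cps1 on M12335expandedCDS_s_at with WPH and CAS, Otc with CAS and Arg2 with WPH.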
